A study of Mus musculus with 37 samples.

Results

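The 33 sterol and fatty acid synthesis genes described here were chosen by name, as enzymes, regulators and carriers of the pathway, and all 33 were found among the 23170 genes of the count and TPM tables. All 33 also had enough counts to be tested, with 12774 genes tested in all. RNA was sequenced from mouse bone-marrow-derived macrophages under culture toward osteoclasts, large bone-resorbing cells with many nuclei. Cells were wild type (WT) or labelled as knocked out for Arid1a (KO), the gene of a large subunit of BAF chromatin remodellers, and were sampled at days 0, 2 and 4 of that culture. Every group carries the same label of osteoclastic differentiation, day 0 included. The 6 groups held 2 libraries each. The labels give no strain, age, Cre driver or deleted exon, and they do not say whether the replicates were separate animals or cultures, so the p-values measure the spread between these libraries, which may be technical.

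Cholesterol and fatty acids are both built from cytosolic acetyl-CoA. The sterol branch passes through mevalonate, farnesyl diphosphate, squalene and lanosterol, while the fatty acid branch makes palmitate, which elongases and desaturases then modify. Both branches are driven by the SREBP transcription factors, which stay in the endoplasmic reticulum with their escort SCAP while sterols are plentiful, held by INSIG proteins, and are cut and released to the nucleus when sterols fall. In osteoclasts the farnesyl diphosphate step is known as the target of nitrogen-containing bisphosphonate drugs, since the isoprenoids made from it are needed to anchor small GTPases.

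Total counts ran from 16282164 to 18608353 per library. In CPM (counts scaled to a library size common to all libraries), Arid1a held 242 and 197 at day 0, 169 and 175 at day 2 and 164 and 135 at day 4 in WT. It held 94.6 and 104 at day 0, 118 and 117 at day 2 and 84.7 and 97.98 at day 4 in KO, so KO libraries lay below WT libraries at every day without losing the transcript. Summed TPM (counts per length, scaled to a common total) of 9 osteoclast markers reached 16609.7 and 21241 in WT at day 4 and 5185 and 1298 in KO. The 8 macrophage markers were above 0 in every library, and their sum went from 65721 and 62066 TPM at day 0 to 2014 and 1848 at day 4 in WT, and from 5765 and 6060.5 to 1764 and 2659 in KO. Most of the day 0 gap lay in Lyz2, the lysozyme gene, at 59431 and 55098 TPM in WT and 55.5 and 71.4 TPM in KO, since the other 7 markers summed to 6291 and 6968 TPM in WT and 5709.9 and 5989 TPM in KO. At day 4 these 7 summed to 625 and 649 TPM in WT and 1657 and 2592 TPM in KO, so KO lay above WT. Of the 8 markers, 6 were called higher in KO and 1, Lyz2, lower (median log2 fold change 2.64). Over all genes tested, 14.5% were called higher and 11.1% lower. All 6 adipocyte markers were at 0 in every library. B cell markers summed to at most 4.15 TPM, T and NK cell markers to at most 2.68 TPM, and neutrophil markers to at most 10.4 TPM except in WT day 0 replicate 1, at 116 TPM. Stromal markers, mostly collagens, varied widely, as given below with the genes that they moved with. RNAs of the mitochondrial genome took 1.55 to 2.87% of counts, with WT day 4 highest at 2.62 and 2.87%. In bulk RNA, fewer cells of a type and less RNA per cell cannot be told apart.

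In WT most of the sterol and fatty acid genes rose between day 2 and day 4. From day 0 to day 4, 23 of the 33 rose and 2 fell (edgeR quasi-likelihood test, adjusted p under 0.05 over all genes), where 29.1% of all genes tested rose and 27.6% fell. Their median log2 fold change was 1.15, against -0.04 over all genes. The largest rises were those of Scd2, a stearoyl-CoA desaturase gene (3.95 ± 0.87, log2 fold change ± SE), Fdps, the farnesyl diphosphate synthase gene (2.57 ± 0.20), and Sqle, the squalene epoxidase gene (2.45 ± 0.49). The falls were those of Fads1, a fatty acid desaturase gene (-2.201 ± 0.30), and Tm7sf2, a sterol reductase gene (-1.52 ± 0.29). From day 2 to day 4, 24 rose and 1 fell, against 27.4% and 24.4% of all genes. Both WT day 4 libraries lay above all 10 other libraries for 19 of the 33 genes (57.6%), against 20.0% of all genes tested. With any 1 of the 12 libraries left out, 22 to 26 of the 33 were called from day 0 to day 4.

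In KO fewer of these genes rose. From day 0 to day 4, 4 of the 33 rose and 9 fell, against 23.3% and 21.3% of all genes, with a median log2 fold change of -0.11. The 4 that rose were Acaca and Fasn, which encode the enzymes that build palmitate, Acat2, which encodes the first enzyme of the sterol branch, and Mvd, which encodes the mevalonate diphosphate decarboxylase. The largest falls were those of Tm7sf2 (-1.97 ± 0.30), Fads1 (-1.47 ± 0.30) and Insig1 (-1.07 ± 0.15), the last of which rose in WT. Cyp51, Ebp, Sc5d, Insig2, Scap and Stard4 also fell. From day 2 to day 4, 13 rose and 4 fell, against 22.1% and 20.6% of all genes. Those 17 calls became 8 with KO day 2 replicate 1 left out, 5 with KO day 2 replicate 2 left out and 11 with KO day 4 replicate 1 left out.

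**Figure D1:**
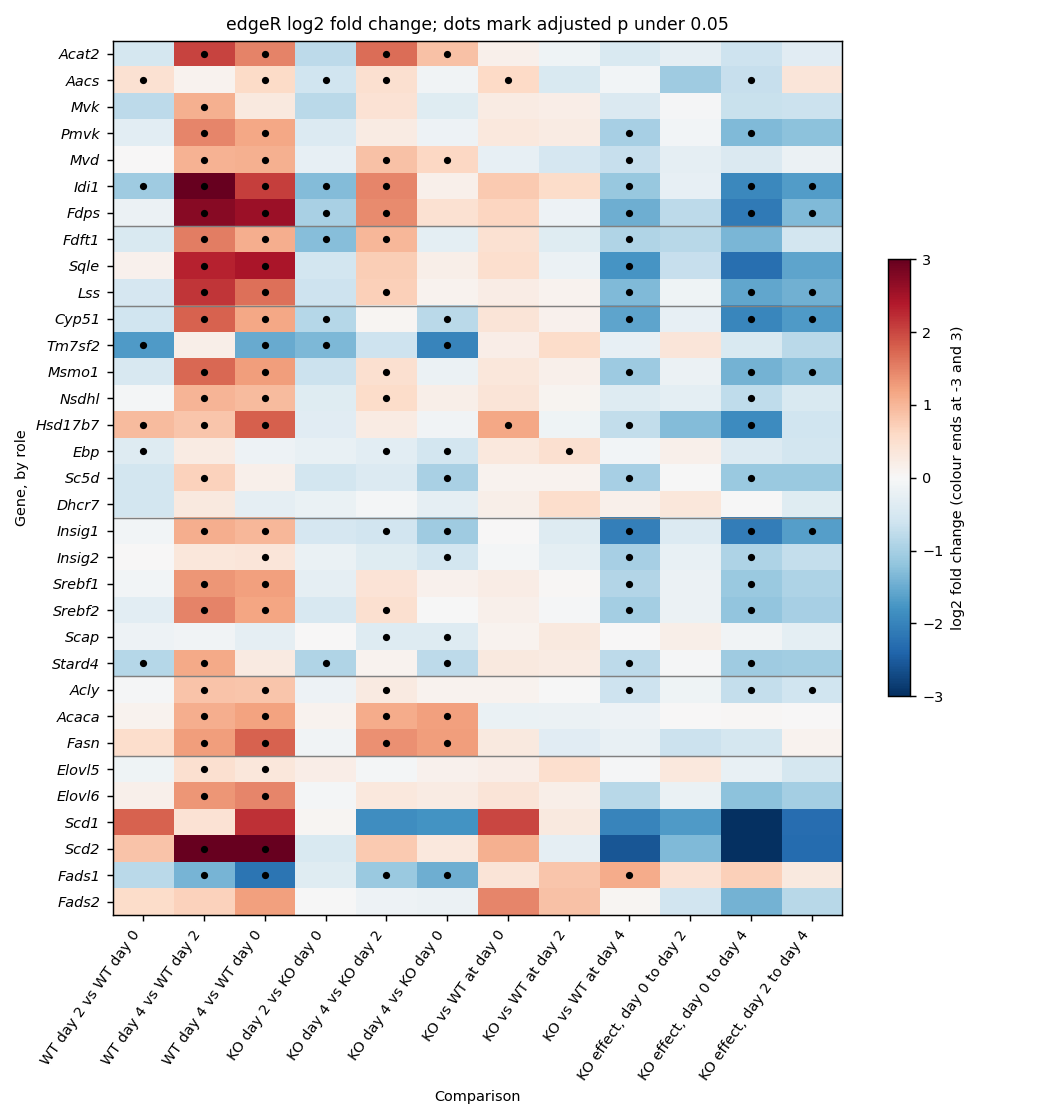
Log2 fold change (colour) of each of the 33 genes (rows, grouped by role) in the 12 comparisons (columns), with dots where the adjusted p was under 0.05. The 2 WT columns that end at day 4 are mostly red with dots in 25 of 33 rows, and the column of KO against WT at day 4 is mostly blue with dots in 18 rows.

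Between the genotypes most calls were made at day 4. There, 17 of the 33 genes were lower in KO than in WT and 1, Fads1, was higher, where 11.1% of all genes tested were lower and 14.5% higher. The median log2 fold change was -0.79, against -0.03 over all genes. The KO libraries were both lower than the 2 WT libraries for 23 of the 33 genes (for 34.5% of all genes tested), both higher for 1 (32.0%), and overlapped them for 9. The 18 calls became 11 with WT day 4 replicate 1 left out, 9 with WT day 4 replicate 2 left out and 11 with KO day 4 replicate 2 left out. At day 0, 2 genes, Hsd17b7 and Aacs, were called, both higher in KO (0.767% of all genes were higher and 0.814% lower). At day 2, 1 gene, Ebp, was called, higher in KO (3.09% of all genes higher, 1.42% lower). None of these 3 calls held with any library of its own day left out. Apart from calls, both KO libraries lay above both WT libraries for 15 of the 33 genes at day 0 and 13 at day 2. The shares of all genes tested were 25.1% and 32.2%. They lay below for 1 gene at day 0 and 6 at day 2 (20.5% and 31.0% of all genes).

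The change of the KO effect over time was tested itself, as the interaction of genotype and day. From day 0 to day 4 it was called for 16 of the 33 genes, all in the direction of a lower relative level in KO, where 5.75% of all genes were called higher and 2.82% lower. The median was -1.11, against -0.04 over all genes, and the sign was negative for 31 of the 33 members and for 6727 of the 12774 genes. From day 2 to day 4 it was called for 7, again all negative (2.09% of all genes higher and 1% lower), namely Idi1, Fdps, Lss, Cyp51, Msmo1, Insig1 and Acly. Those 7 calls became 0 with either day 2 library of either genotype or with WT day 4 replicate 2 left out, 1 with WT day 4 replicate 1 left out, 3 with either KO day 0 library or KO day 4 replicate 2 left out, and 14 with KO day 4 replicate 1 left out. From day 0 to day 2 edgeR called none of the 33 (3 at an unadjusted p under 0.05, 1 by DESeq2), where 0.00783% of all genes were called higher and 0% lower. These 3 interactions and the comparisons above share libraries, so they are not independent of each other.

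**Figure D2:**
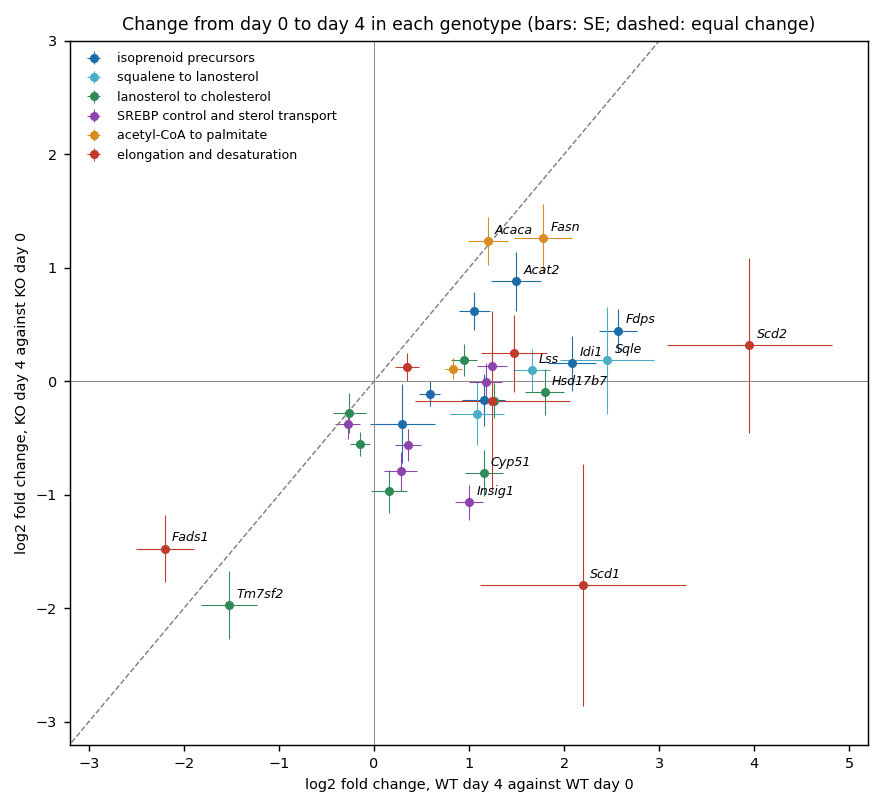
Log2 fold change from day 0 to day 4 in WT (x axis) and in KO (y axis) for each of the 33 genes, coloured by role, with bars for the SE. Of the 33 points, 31 lie below the dashed line of equal change, and Acaca lies close to it, at 1.198 in WT and 1.23 in KO.

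Promoters of genes with the most negative interaction from day 0 to day 4 are shown beside that of Fasn, whose interaction was not called. Insig1, Cyp51, Idi1 and Hsd17b7 had the 4 most negative called values among the genes with a RefSeq promoter in the table used. It held 26 of the 33 genes (GRCm38.p6). Its windows run from upstream of an annotated start to just past it, with several windows for some genes. An annotated start need not be the outer end of the gene, and the windows of Fasn and Acaca, for instance, lie within the span of their gene. Each promoter shown is printed along the strand of its gene. Capitals mark the letters CCAAT, or ATTGG where the match is on the other strand. These letters are the core of the box bound by NF-Y, a factor known to work beside SREBPs.

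Insig1, chr5:28071162-28071461, plus strand: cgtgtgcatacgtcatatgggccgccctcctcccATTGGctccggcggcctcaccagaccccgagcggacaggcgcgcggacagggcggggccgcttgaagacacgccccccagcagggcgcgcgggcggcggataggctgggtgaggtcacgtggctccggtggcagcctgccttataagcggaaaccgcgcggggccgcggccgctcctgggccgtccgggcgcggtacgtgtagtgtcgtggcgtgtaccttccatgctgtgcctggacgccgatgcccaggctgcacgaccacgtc

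Cyp51, chr5:4104648-4104947, minus strand: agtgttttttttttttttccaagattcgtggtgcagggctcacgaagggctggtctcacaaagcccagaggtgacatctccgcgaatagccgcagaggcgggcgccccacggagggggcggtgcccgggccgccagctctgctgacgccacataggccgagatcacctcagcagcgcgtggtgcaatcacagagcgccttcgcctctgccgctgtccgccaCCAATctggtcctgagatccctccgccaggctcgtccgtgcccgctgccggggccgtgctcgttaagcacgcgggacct

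Idi1, chr13:8885356-8885655, plus strand: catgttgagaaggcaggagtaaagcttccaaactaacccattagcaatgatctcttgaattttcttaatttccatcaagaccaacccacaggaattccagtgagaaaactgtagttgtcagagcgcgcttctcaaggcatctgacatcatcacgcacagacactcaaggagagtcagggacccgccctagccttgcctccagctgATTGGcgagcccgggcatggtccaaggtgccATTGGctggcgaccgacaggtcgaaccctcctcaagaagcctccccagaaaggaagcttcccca

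Hsd17b7, chr1:169969156-169969455, minus strand: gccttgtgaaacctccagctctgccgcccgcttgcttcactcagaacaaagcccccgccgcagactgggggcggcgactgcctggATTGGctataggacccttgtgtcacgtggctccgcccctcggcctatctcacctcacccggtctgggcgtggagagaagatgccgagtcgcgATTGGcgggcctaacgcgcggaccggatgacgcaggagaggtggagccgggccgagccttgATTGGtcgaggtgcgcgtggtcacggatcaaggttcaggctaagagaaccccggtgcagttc

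Fasn, chr11:120824498-120824797, minus strand: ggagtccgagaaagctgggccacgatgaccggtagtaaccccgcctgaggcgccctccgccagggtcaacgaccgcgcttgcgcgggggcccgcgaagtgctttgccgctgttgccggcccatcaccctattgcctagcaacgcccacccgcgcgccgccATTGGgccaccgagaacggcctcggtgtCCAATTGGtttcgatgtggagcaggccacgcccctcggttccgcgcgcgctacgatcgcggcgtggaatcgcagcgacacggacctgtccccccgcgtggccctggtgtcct

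CCAAT on either strand was found in a promoter of 20 of the 26 genes (76.9%), against 42.7% of the 10150 genes tested that had a promoter in the table. GGGCGG, the box bound by Sp1, was also found in 20 of 26 (76.9%), against 68.2%. Over all 32851 promoters of the table the shares were 37.4% and 35.7%. The letters TCACNCCAC, a strict form of the sterol regulatory element, were found on either strand in none of the 26 genes and in 1.35% of the genes tested, which says only that these letters are not in these windows. In the Fasn promoter a match on each strand overlaps in CCAATTGG. Matches are letters in a window, and binding was not measured here.

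Of the 7 genes that make isoprenoid precursors, 6 rose from day 0 to day 4 in WT, against 29.1% of all genes tested. At day 4, 4 were lower in KO than in WT, against 11.1%. Fdps held 15.2 and 19.7 CPM in WT at day 0, 15.6 and 15.4 at day 2 and 107 and 100.2 at day 4. In KO it held 31.3 and 23.5 CPM at day 0, 15.4 and 12.6 at day 2 and 41.1 and 33.6 at day 4. The KO libraries at day 4 thus stood above all 4 earlier KO libraries and far below both WT libraries of that day (2.78-fold lower, -1.47 ± 0.19, edgeR adjusted p = 0.00149). Idi1, which encodes the isomerase that turns isopentenyl diphosphate into its reactive partner, held 3.897 and 5.69 CPM at day 0, 2.39 and 2.17 at day 2 and 19.6 and 21.1 at day 4 in WT. Its KO libraries held 8.900 and 7.73 CPM at day 0, 3.75 and 2.93 at day 2 and 10.3 and 8.21 at day 4. It was thus lowest at day 2 in both genotypes, and KO lay above WT at days 0 and 2 and below it at day 4 (-1.13 ± 0.24, adjusted p = 0.0114).

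Pmvk and Mvd, which encode the phosphomevalonate kinase and the decarboxylase that follows it, differed by less. Pmvk held 10.4 and 11.3 CPM at day 0, 10.9 and 6.44 at day 2 and 23.6 and 24.5 at day 4 in WT. The KO values stood at 12.9 and 14.1 CPM at day 0, 9.44 and 11.1 at day 2 and 12.3 and 11.8 at day 4. Only its WT day 4 libraries stood apart, and KO at day 4 was lower (-0.99 ± 0.23, adjusted p = 0.0151). Mvd held 16.8 and 13.1 CPM at day 0, 16.5 and 13.6 at day 2 and 31.3 and 30.97 at day 4 in WT. Its KO values were 13.6 and 11.6 CPM at day 0, 10.2 and 10.99 at day 2 and 19.05 and 19.8 at day 4. It rose in both genotypes from day 0 to day 4 (1.06 in WT and 0.62 in KO, the latter not called without KO day 0 replicate 2, adjusted p = 0.107), and KO stayed lower at day 4 (-0.68 ± 0.16, adjusted p = 0.0179). The day 4 genotype calls of Idi1, Pmvk and Mvd were each lost when either WT day 4 library or KO day 4 replicate 2 was left out. In that order of genes, the adjusted p was 0.0521, 0.0621 and 0.0833 with WT replicate 1 left out, 0.0819, 0.0848 and 0.0912 with WT replicate 2 left out, and 0.0795, 0.0777 and 0.0716 with KO replicate 2 left out, while that of Fdps was kept in all 19 alternatives.

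None of the genes of the first steps of the branch was called between genotypes at day 4. Acat2, which encodes the cytosolic acetoacetyl-CoA thiolase, rose from day 0 to day 4 in WT (1.495 ± 0.26) and in KO (0.88 ± 0.26), and the KO call was lost without KO day 0 replicate 2 (adjusted p = 0.1503) or KO day 4 replicate 1 (0.0953). Its KO libraries at day 4 held 17.7 and 14.8 CPM, below the WT libraries at 23.00 and 21.9 CPM, without passing the threshold (-0.47 ± 0.26, adjusted p = 0.217). Aacs, which encodes acetoacetyl-CoA synthetase, held 18.7 and 18.5 CPM at day 0, 25.5 and 26.1 at day 2 and 29.8 and 26.04 at day 4 in WT. KO libraries stood at 29.3 and 27.4 CPM at day 0, 19.3 and 18.2 at day 2 and 25.8 and 26.7 at day 4. It was higher in KO at day 0 (0.61 ± 0.11, adjusted p = 0.0402), below WT in both libraries at day 2, and overlapped WT at day 4. Its day 0 call was lost without WT day 0 replicate 1 (adjusted p = 0.175) or any of 9 other libraries. Mvk, which encodes mevalonate kinase, ran from 6.49 to 16.02 CPM over all 12 libraries, with both extremes in WT, and was called only as a rise from day 2 to day 4 in WT (1.08 ± 0.35, adjusted p = 0.0307), a call lost without any 1 of the 4 libraries compared (adjusted p up to 0.129).

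From farnesyl diphosphate to lanosterol, the first steps committed to sterols, all 3 genes rose in WT by day 4 and all 3 were lower in KO. The shares of all genes tested were 29.1% and 11.1%. Sqle, often named as a rate-limiting step of the branch, held 15.3 and 17.8 CPM at day 0, 19.4 and 16.97 at day 2 and 90.98 and 90.4 at day 4 in WT. In KO it held 33.5 and 13.6 CPM at day 0, 21.5 and 10.7 at day 2 and 35.1 and 18.4 at day 4, with replicate 1 well above replicate 2 at each day. All KO libraries lay below the WT day 4 libraries (3.39-fold lower at day 4, -1.76 ± 0.48, adjusted p = 0.0304). Lss, which encodes lanosterol synthase, held 24.02 and 20.6 CPM at day 0, 15.5 and 16.1 at day 2 and 69.7 and 71.1 at day 4 in WT. The values in KO were 28.5 and 23.9 CPM at day 0, 17.01 and 17.1 at day 2 and 33.8 and 22.2 at day 4. Its KO libraries at day 4 were about where they had been at day 0, and below WT (-1.33 ± 0.19, adjusted p = 0.00222). On the TPM scale its WT replicates disagreed, at 16.1 and 7.04 TPM at day 0 and 5.43 and 14.3 TPM at day 2, and limma on log2(TPM + 1) did not call the genotypes different at day 4 (adjusted p = 0.0844). Fdft1, which encodes squalene synthase, held 9.89 and 11.4 CPM at day 0, 6.49 and 8.97 at day 2 and 22.2 and 22.9 at day 4 in WT. The KO libraries held 18.6 and 10.8 CPM at day 0, 5.75 and 6.28 at day 2 and 13.98 and 10.2 at day 4. Its call at day 4 was close to the threshold (-0.90 ± 0.28, adjusted p = 0.0457) and was lost in 12 of 19 alternatives, with adjusted p up to 0.239, and in WT its rise by day 4 was lost without WT day 0 replicate 1 (adjusted p = 0.0626). The call of Sqle at day 4 was lost without WT day 2 replicate 2 (adjusted p = 0.0504), WT day 4 replicate 1 (0.101), WT day 4 replicate 2 (0.114) or KO day 4 replicate 2 (0.189).

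**Figure D3:**
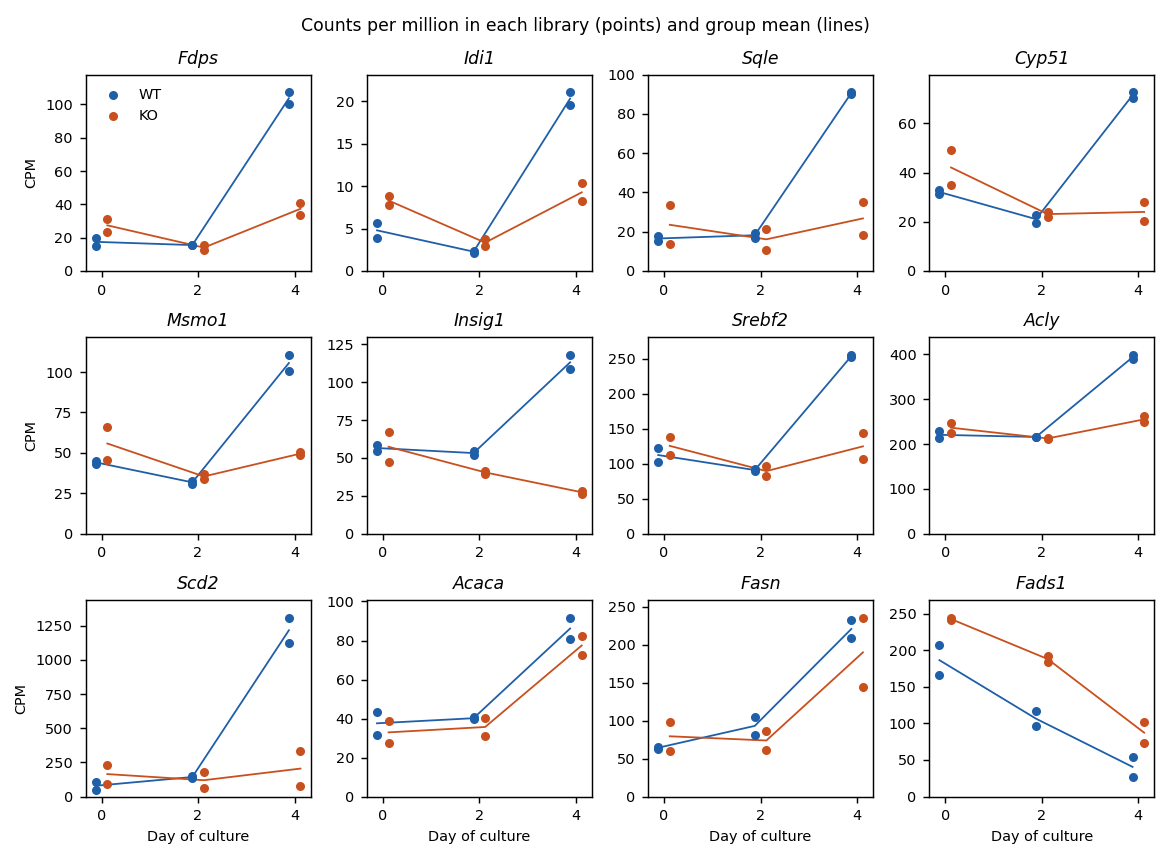
CPM (y axis, from 0) of 12 of the genes in each library (points) against day of culture (x axis), with lines through the group means of WT (blue) and KO (orange). Fdps, Idi1, Sqle, Cyp51, Msmo1, Insig1, Srebf2, Acly and Scd2 climb to their WT maximum at day 4 with the KO points below, while the KO points of Acaca and Fasn overlap those of WT and those of Fads1 lie above them.

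Of the 8 genes that turn lanosterol into cholesterol, 4 rose and 1 fell in WT from day 0 to day 4 (29.1% and 27.6% of all genes). At day 4, 4 were lower in KO (11.1% of all genes). Cyp51, which encodes the lanosterol demethylase, held 33.1 and 31.1 CPM at day 0, 22.8 and 19.3 at day 2 and 70.3 and 72.6 at day 4 in WT. In KO it held 49.4 and 34.8 CPM at day 0, 22.1 and 24.2 at day 2 and 27.9 and 20.1 at day 4. It thus rose in WT (1.15 ± 0.20) and fell in KO (-0.81 ± 0.20), and ended 2.98-fold lower in KO (-1.57 ± 0.20, adjusted p = 0.001497). The KO fall was lost without KO day 0 replicate 1 (adjusted p = 0.0794) or KO day 4 replicate 2 (0.0521), while the difference at day 4 was called in all 19 alternatives. Msmo1, which encodes the methylsterol oxidase that acts after it, held 43.2 and 45.1 CPM at day 0, 32.6 and 30.9 at day 2 and 101 and 110.4 at day 4 in WT. In KO it held 65.9 and 45.8 CPM at day 0, 34.1 and 36.8 at day 2 and 50.4 and 48.7 at day 4. KO at day 4 was within the range of KO at day 0 and 2.13-fold below WT (-1.09 ± 0.16, adjusted p = 0.00229, called in all 19 alternatives).

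Nsdhl, Hsd17b7 and Sc5d, which encode a sterol dehydrogenase, a sterol ketone reductase and a sterol desaturase, showed smaller differences. Hsd17b7 held 6.92 and 5.52 CPM at day 0, 13.4 and 10.8 at day 2 and 20.8 and 22.4 at day 4 in WT, so that it had already risen at day 2 (0.96 ± 0.21, adjusted p = 0.0177). KO held 15.7 and 11.97 CPM at day 0, 10.5 and 11.5 at day 2 and 14.03 and 11.8 at day 4 with no call over time, above WT at day 0 (1.15 ± 0.21, adjusted p = 0.0361) and below it at day 4 (-0.74 ± 0.20, adjusted p = 0.0286). The day 2 rise was lost without WT day 0 replicate 2 (adjusted p = 0.0695) or WT day 2 replicate 1 (0.104), the day 0 difference without any of 10 libraries (adjusted p up to 0.202, without KO day 0 replicate 1), and the day 4 difference without WT day 4 replicate 1 (0.0887), WT day 4 replicate 2 (0.146) or KO day 4 replicate 2 (0.161). Sc5d held 29.9 and 24.8 CPM at day 0, 20.1 and 17.4 at day 2 and 27.7 and 33.3 at day 4 in WT. Its KO values were 32.3 and 26.97 CPM at day 0, 22.6 and 17.5 at day 2 and 16.4 and 13.9 at day 4. At day 4 it was near its day 0 values in WT, while it fell in KO (-0.97 ± 0.19, adjusted p = 0.00345), and was lower in KO at day 4 (-1.01 ± 0.19, adjusted p = 0.00637, or 0.0562 without WT day 4 replicate 2). Nsdhl held 15.4 and 16.2 CPM at day 0, 15.6 and 14.6 at day 2 and 28.05 and 32.97 at day 4 in WT. KO libraries stood at 19.9 and 21.2 CPM at day 0, 16.6 and 15.4 at day 2 and 25.3 and 21.5 at day 4, lower in both KO libraries at day 4 without passing the threshold (-0.38 ± 0.14, adjusted p = 0.0715).

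Tm7sf2, Ebp and Dhcr7 did not take part in the WT rise. Tm7sf2, which encodes a sterol reductase also known as a lamin B receptor homologue, held 7.39 and 10.9 CPM at day 0, 2.77 and 2.83 at day 2 and 3.35 and 3.02 at day 4 in WT. The values in KO were 9.37 and 11.7 CPM at day 0, 3.75 and 4.503 at day 2 and 2.25 and 3.11 at day 4. It fell by day 2 in both genotypes (-1.71 ± 0.30 in WT and -1.35 ± 0.29 in KO) and was still low at day 4 in both, and no test of KO against WT called it. The WT call at day 2 was lost without WT day 2 replicate 1 (adjusted p = 0.0651) or replicate 2 (0.0621), and the KO call without any 1 of the 8 libraries of KO days 0 and 2 and WT days 2 and 4 (adjusted p up to 0.247, without KO day 0 replicate 2). In the annotation the gene overlaps Vps51, as Fdft1 overlaps Ctsb, Lss overlaps 4930483K19Rik and Srebf1 overlaps Rai1, so reads could be shared within these pairs if the counting ignored strand. Ebp, which encodes a sterol isomerase, held 44.97 and 42.4 CPM at day 0, 32.4 and 34.7 at day 2 and 40.96 and 38.1 at day 4 in WT. The KO libraries held 57.1 and 51.8 CPM at day 0, 47.3 and 45.6 at day 2 and 38.7 and 35.5 at day 4. KO lay above WT at days 0 and 2, with the call at day 2 (0.47 ± 0.10, adjusted p = 0.0432, lost in 14 of 19 alternatives), and Ebp fell from day 0 to day 4 in KO (-0.55 ± 0.10), a fall that limma on log2(TPM + 1) did not call (adjusted p = 0.105). Dhcr7, which encodes the reductase that makes cholesterol, ran from 14.6 to 24.9 CPM over the 12 libraries and was called in none of the 12 comparisons by edgeR.

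Of the 6 genes of SREBP control and sterol transport, 4 rose in WT from day 0 to day 4 (29.1% of all genes). At day 4, 5 were lower in KO (11.1% of all genes). Srebf2, which encodes the SREBP best known for sterol genes, held 103 and 122 CPM at day 0, 89.2 and 92.7 at day 2 and 252 and 255 at day 4 in WT. The KO values stood at 138 and 113 CPM at day 0, 96.98 and 81.9 at day 2 and 143 and 106 at day 4. Its WT day 4 libraries lay above the other 10, and KO ended 2.03-fold lower (-1.02 ± 0.17, adjusted p = 0.00394). Srebf1, which encodes the SREBPs best known for fatty acid genes, held 54.7 and 53.6 CPM at day 0, 52.00 and 50.1 at day 2 and 140.4 and 116 at day 4 in WT. Its KO values were 65.2 and 60.6 CPM at day 0, 50.3 and 54.04 at day 2 and 79.8 and 58.3 at day 4, with the same order and a similar size of difference (-0.89 ± 0.15, adjusted p = 0.00464). Both calls were kept in all 19 alternatives. Gene counts do not separate the transcripts of Srebf1 or show how much of either protein was cut and active. Scap, which encodes the escort of the SREBPs, ran from 45.7 to 67.8 CPM over all libraries, with no call between genotypes. It was called as a fall in KO at day 4 (-0.38 from day 0, adjusted p = 0.0427), which turned to a log2 fold change of 0.067 on the log2(TPM + 1) scale and was lost in 11 of 19 alternatives, among them without KO day 0 replicate 2 (adjusted p = 0.182).

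The INSIG genes encode the proteins that hold the SREBP escort in the endoplasmic reticulum, and of all 33 genes Insig1 had the largest called difference between genotypes at day 4. Insig1 held 54.9 and 58.3 CPM in WT at day 0, 54.3 and 52.2 at day 2 and 108 and 118 at day 4. In KO it held 67.2 and 47.6 CPM at day 0, 41.5 and 39.6 at day 2 and 28.4 and 26.4 at day 4. It rose in WT (0.999 ± 0.15, adjusted p = 5.43e-04), fell in KO (-1.07 ± 0.15, adjusted p = 7.70e-04), and ended 4.13-fold lower in KO (-2.05 ± 0.16, adjusted p = 3.50e-04), and all 3 calls were kept in all 19 alternatives. Its paralog Insig2 held 40.5 and 39.1 CPM at day 0, 43.1 and 37.1 at day 2 and 45.2 and 57.1 at day 4 in WT. KO libraries stood at 39.04 and 36.9 CPM at day 0, 31.3 and 34.5 at day 2 and 26.7 and 24.7 at day 4. In CPM the KO libraries of Insig2 lay below WT at each day, though at day 0 they all but met, at 39.04 against 39.1. In TPM the groups overlapped at day 0 (54.6 in a KO library, 53.1 in a WT library) and at day 2 (66.8 and 60.95). At day 4 Insig2 was called lower in KO (-0.99 ± 0.14, adjusted p = 0.002004, but 0.0599 by limma on log2(TPM + 1)). Its small rise in WT (0.36, adjusted p = 0.0496) was lost in 16 of 19 alternatives, and its fall in KO (-0.56) was lost without KO day 0 replicate 1 (adjusted p = 0.0594) and by limma on log2(TPM + 1) (0.865). Stard4, which encodes a soluble carrier of cholesterol, held 56.4 and 66.00 CPM at day 0, 34.8 and 32.3 at day 2 and 72.9 and 75.7 at day 4 in WT. The values in KO were 83.6 and 65.4 CPM at day 0, 41.5 and 38.1 at day 2 and 49.6 and 36.5 at day 4. It fell by day 2 in both genotypes, stood just above its day 0 range in WT at day 4, and was lower in KO at day 4 (-0.79 ± 0.17, adjusted p = 0.0122). That call was lost without WT day 4 replicate 1 (adjusted p = 0.0517), WT day 4 replicate 2 (0.0745) or KO day 4 replicate 2 (0.0655).

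**Figure D4:**
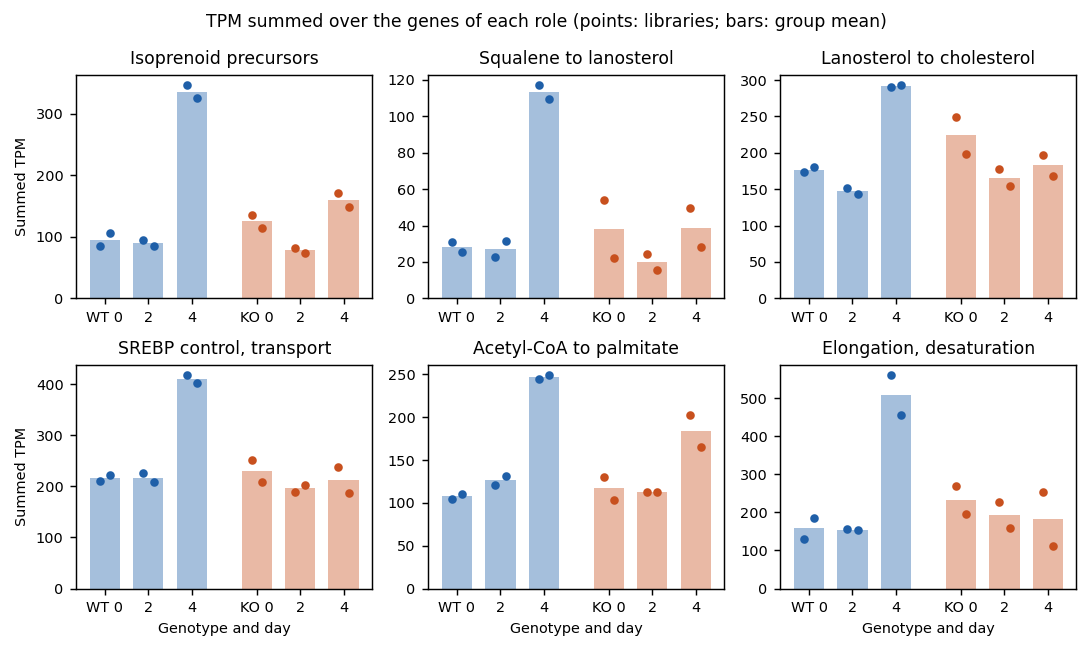
TPM summed over the genes of each of the 6 roles (y axis, from 0), for each library (points) and as group means (bars), by genotype and day (x axis). In every role both WT day 4 libraries are the highest 2 of the 12. For elongation and desaturation this rank rests on Scd2, which held 443 and 373 of the 560 and 456 TPM in WT at day 4. The KO day 4 libraries come nearest to those of WT for the genes from acetyl-CoA to palmitate, at 202 and 165 TPM against 245 and 249 TPM.

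The genes that lead from citrate to palmitate rose in WT, and 2 of the 3 rose in KO too (29.1% and 23.3% of all genes). Acly, which encodes the enzyme that makes cytosolic acetyl-CoA from citrate for both branches, held 213 and 228 CPM at day 0, 216 and 216 at day 2 and 389 and 398 at day 4 in WT. The KO libraries held 247 and 225 CPM at day 0, 211 and 214 at day 2 and 262 and 248 at day 4. Its replicates agreed closely, and KO was 1.54-fold lower at day 4 (-0.63 ± 0.09, adjusted p = 0.00254, called in all 19 alternatives). Acaca, which encodes acetyl-CoA carboxylase, the committed step of fatty acid synthesis, held 43.4 and 31.7 CPM at day 0, 40.7 and 39.7 at day 2 and 91.6 and 80.7 at day 4 in WT. The KO values stood at 38.5 and 27.3 CPM at day 0, 40.1 and 31.2 at day 2 and 82.2 and 72.7 at day 4. It rose by day 4 in WT (1.198 ± 0.21) and in KO (1.23 ± 0.21), and the groups overlapped at every day (-0.15 ± 0.21 at day 4, adjusted p = 0.634). Fasn, which encodes fatty acid synthase, held 63.1 and 65.6 CPM at day 0, 81.6 and 105 at day 2 and 232 and 209.6 at day 4 in WT. Its KO values were 98.9 and 60.1 CPM at day 0, 86.3 and 61.5 at day 2 and 235 and 145 at day 4. It also rose in both (1.78 ± 0.30 in WT and 1.26 ± 0.30 in KO), with wide KO replicates that overlapped WT at day 4 (-0.22 ± 0.30, adjusted p = 0.637). The KO rise of Fasn was lost without KO day 0 replicate 2 (adjusted p = 0.0682) or KO day 4 replicate 1 (0.0572). These p-values do not show that the genotypes were alike for Acaca and Fasn, and in the annotation Acaca also overlaps another gene, Tada2a.

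The 6 elongase and desaturase genes differed from one another. From day 0 to day 4 in WT, 3 rose and 1 fell, against 29.1% and 27.6% of all genes tested. At day 4, 1 was higher in KO, against 14.5% of all genes. The fall and the higher level, 1 gene each, lay near or below those shares. Scd2, one of the stearoyl-CoA desaturases, which make monounsaturated fatty acids, was the most abundant of the 33 genes in WT at day 4, at 443 and 373 TPM. It held 51.5 and 106 CPM at day 0, 134 and 151 at day 2 and 1306 and 1126 at day 4 in WT. KO libraries stood at 233 and 95.02 CPM at day 0, 180.0 and 58.8 at day 2 and 334 and 74.5 at day 4. Every KO library lay below both WT day 4 libraries by over 3-fold, while the KO replicates differed by over 4-fold at day 4 and the difference between genotypes did not pass the threshold (-2.57 ± 0.82, adjusted p = 0.05202). Its paralog Scd1 held 2.44 and 11.6 CPM at day 0, 28.6 and 19.3 at day 2 and 36.9 and 27.7 at day 4 in WT. The values in KO were 38.6 and 17.96 CPM at day 0, 38.1 and 20.9 at day 2 and 15.3 and 0.943 at day 4, and no comparison was called by edgeR. Without KO day 4 replicate 1 the genotypes differed at day 4 for Scd1 (adjusted p = 0.0199) and for Scd2 (0.0195), and without KO day 4 replicate 2 they did not (0.527 and 0.228).

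Fads1 and Fads2 encode the neighbouring desaturases of polyunsaturated fatty acids. Fads1 held 166 and 207 CPM at day 0, 117 and 96.2 at day 2 and 53.9 and 27.2 at day 4 in WT. The KO libraries held 241 and 244 CPM at day 0, 193 and 184 at day 2 and 102 and 73.1 at day 4. It went the other way from most of the 33 genes, falling by day 4 in both genotypes (-2.201 ± 0.30 in WT and -1.47 ± 0.30 in KO), with KO above WT at each day. The call at day 4 (1.11 ± 0.30, adjusted p = 0.0274) was lost without WT day 4 replicate 2 (adjusted p = 0.1096) or KO day 4 replicate 1 (0.0952). Fads2 held 1.22 and 6.19 CPM at day 0, 4.99 and 5.96 at day 2 and 12.2 and 5.38 at day 4 in WT. The KO values stood at 13.2 and 7.34 CPM at day 0, 13.3 and 6.96 at day 2 and 13.9 and 4.38 at day 4, and was not called in any comparison by edgeR. Elovl6, which encodes the elongase of palmitate, held 6.34 and 7.401 CPM at day 0, 7.99 and 7.22 at day 2 and 20.1 and 18.05 at day 4 in WT. Its KO values were 10.6 and 7.47 CPM at day 0, 9.13 and 8.19 at day 2 and 14.7 and 6.66 at day 4. It rose in WT (1.47 ± 0.34), and KO lay lower at day 4 without a call (-0.83 ± 0.34, adjusted p = 0.105). Elovl5, which encodes an elongase of polyunsaturated fatty acids, held 54.2 and 54.8 CPM at day 0, 48.9 and 51.2 at day 2 and 72.05 and 66.5 at day 4 in WT. KO libraries stood at 66.99 and 57.1 CPM at day 0, 73.3 and 68.3 at day 2 and 74.6 and 61.2 at day 4, with the groups overlapping at day 4. Its WT rise (0.35, adjusted p = 0.0387) was lost in 8 of 19 alternatives, among them without any 1 of the WT day 0 and WT day 4 libraries (adjusted p up to 0.172, without WT day 4 replicate 1).

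At day 2 the changes were smaller and mostly downward. In WT 2 genes rose, Aacs (0.47) and Hsd17b7 (0.96), and 4 fell, Tm7sf2 (-1.71), Idi1 (-1.07), Stard4 (-0.87) and Ebp (-0.38), where 8.06% of all genes rose and 9.25% fell, so that the shares of the 33 lay near those of all genes. In KO 7 were called, all lower, against 3.01% of all genes that rose and 1.73% that fell. They were Tm7sf2 (-1.35), Idi1 (-1.31), Fdft1 (-1.29), Fdps (-0.96), Stard4 (-0.90), Cyp51 (-0.86) and Aacs (-0.60). The 6 WT calls became 1 with WT day 0 replicate 2 or WT day 2 replicate 2 left out, and 0 with WT day 2 replicate 1 left out. The 7 KO calls became 0 with KO day 0 replicate 1, KO day 2 replicate 1 or KO day 2 replicate 2 left out, and 3 with KO day 0 replicate 2 left out. They also became 2 or 3 with any 1 of the WT day 2 and WT day 4 libraries left out, which enter this comparison through the shared estimate of spread.

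The interaction from day 0 to day 4 was kept in all 19 alternatives for Fdps (-2.12 ± 0.27, adjusted p = 0.00554), Insig1 (-2.07 ± 0.22, 0.00376) and Cyp51 (-1.96 ± 0.28, 0.00863). Msmo1 (-1.43) lost its call without WT day 4 replicate 2 alone (adjusted p = 0.0573). For the other 12 the call was lost in 4 to 16 of the 19 alternatives. The 16 calls became 3 with WT day 4 replicate 2 left out, 4 with KO day 0 replicate 1 left out, 6 with KO day 0 replicate 2 left out, 7 with replicate 1 of WT day 0 or of WT day 4 left out, and 10 with KO day 4 replicate 2 left out. Every one of these fits gave the same sign for the called genes. Part of the interaction lies at day 0, where both KO libraries lay above both WT libraries for 15 of the 33 genes (25.1% of all genes tested) and below them for 1 (20.5%).

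In KO, most of the sterol and fatty acid genes were higher in the same replicate. There, replicate 1 was higher than replicate 2 for 27 of the 33 genes at day 0, for 22 at day 2 and for 28 at day 4. The median log2 difference in KO between replicates 1 and 2 was 0.257, 0.078 and 0.246 over the 33 genes at these days. Over all genes tested it was -0.007, -0.023 and 0.072, so the shift was small at day 2 and partly general at day 4. By contrast, replicate 1 was higher for 12, 19 and 19 genes in WT. The summed TPM of the 33 genes was 1090.2 and 844 in KO at day 0, 813 and 720.4 at day 2 and 1111 and 807 at day 4. In WT it was 734 and 829 at day 0, 771 and 753 at day 2 and 1976 and 1834 at day 4. The KO libraries at day 4 thus fell within the range of the KO libraries at days 0 and 2 or just above it, while both WT libraries at day 4 stood far above those of days 0 and 2.

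The KO replicates that were higher in these genes also held more RNA of stromal markers. The summed TPM of 7 stromal markers, mostly collagen genes, was 931 and 391.5 in KO at day 0, 1170.4 and 292 at day 2 and 274 and 7.67 at day 4, and 59.3 and 743 at day 0, 1278 and 1677 at day 2 and 221 and 249 at day 4 in WT, with 0 to 2 of the 7 markers at 0 in a library. Scd1 and Fads2 were lowest in the libraries poorest in these markers, WT day 0 replicate 1 (59.3 TPM of markers) and KO day 4 replicate 2 (7.67 TPM). Scd2 was highest in WT at day 4, where the markers were at most 249 TPM. The part of stromal RNA in the values of these genes was not tested. Osteoclast markers differed at day 4 as well, at 5185 and 1298 TPM in KO against 16609.7 and 21241 TPM in WT. They also differed at day 2, at 187 and 155 TPM in KO against 2443 and 2656 TPM in WT. There, 3 of the 9 were called lower in KO (1.42% of all genes), while 1 of the 33 genes was called, higher in KO. Of the 8 macrophage markers, 6 were called higher in KO at day 4 and 1, Lyz2, lower (14.5% and 11.1% of all genes). With Lyz2 their sums overlapped, at 1764 and 2659 TPM in KO against 2014 and 1848 TPM in WT. Their sums without Lyz2 were 1657 and 2592 TPM in KO against 625 and 649 TPM in WT. The part of either difference in the sterol result was not tested.

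Related genes that are not among the 33 were counted by lists, beside the shares of all genes tested. Of 11 other sterol and SREBP-linked genes tested, 6 rose and 2 fell from day 0 to day 4 in WT (median 0.49), where 29.1% of all genes rose and 27.6% fell. At day 4, 4 were lower and 1 higher in KO (median -0.49), where 11.1% of all genes were lower and 14.5% higher. Tmem97, which encodes a sterol-regulated membrane protein, rose in WT (1.68) and in KO (1.23) with no call between genotypes at day 4. Its KO rise was lost without KO day 0 replicate 2 (adjusted p = 0.0669), and it was called lower in KO at day 4 without KO day 4 replicate 1 (0.00561).

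The next list held 9 genes that carry isoprenoids onward, into ubiquinone, prenylated proteins and other products. Of these, 5 rose and 2 fell from day 0 to day 4 in WT (29.1% and 27.6% of all genes). In KO, 3 rose and 3 fell (23.3% and 21.3%), and 3 were lower in KO than in WT at day 4 (11.1%). Pdss1, which encodes a subunit of the synthase of the ubiquinone tail, rose in WT (3.49) and in KO (2.58) and was lower in KO at day 4 (-0.93 ± 0.25, adjusted p = 0.0282). Coq2, which encodes the transferase that attaches this tail, rose in both (0.92 and 0.70) with no call between genotypes. Of the protein prenyltransferase genes, Fnta was lower in KO at day 4 (-0.48 ± 0.10, adjusted p = 0.00846), while Pggt1b fell in both genotypes (-0.53 and -0.56). The day 4 difference of Pdss1 was lost without WT day 4 replicate 1 (adjusted p = 0.0837), WT day 4 replicate 2 (0.171) or KO day 4 replicate 2 (0.169). That of Fnta was lost without WT day 4 replicate 2 (0.0673), as was the WT fall of Pggt1b (0.0551), and the KO rise of Coq2 was lost without KO day 0 replicate 1 (0.104).

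Of 19 other genes of fatty acid synthesis and activation, 9 rose and 3 fell from day 0 to day 4 in WT, against 29.1% and 27.6% of all genes. In KO, 4 rose and 2 fell, which is no more than the 23.3% and 21.3% of all genes, and at day 4, 6 were lower and 1 higher in KO, against 11.1% and 14.5%. Acsl1, which encodes an acyl-CoA synthetase, was the one higher in KO (0.75 ± 0.16, adjusted p = 0.0127), and it rose in both genotypes (2.03 in WT and 2.93 in KO). Hsd17b12, which encodes the reductase of fatty acid elongation, rose in both (1.23 in WT and 0.999 in KO), and Hacd4, which encodes a dehydratase of the same cycle, fell in both (-3.65 and -2.52), neither with a call between genotypes at day 4. Lpin1, which encodes a phosphatidate phosphatase, fell in both (-1.31 and -1.47) and was lower in KO (-0.92 ± 0.20, adjusted p = 0.0108). The day 4 difference of Acsl1 was lost without WT day 4 replicate 1 (adjusted p = 0.0784), WT day 4 replicate 2 (0.0678) or KO day 4 replicate 2 (0.0637), and that of Lpin1 without WT day 4 replicate 2 (0.0727). Hacd4 was called higher in KO at day 4 without WT day 4 replicate 2 (0.0247) or KO day 4 replicate 1 (0.0191).

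Genes of sterol efflux, storage and the LXR pathway, which is switched on by excess sterols, included more falls than rises in both genotypes. Of 11 tested, 1 rose and 6 fell from day 0 to day 4 in WT (median -0.72), against 29.1% and 27.6% of all genes, and 2 rose and 6 fell in KO, against 23.3% and 21.3%. At day 4, 6 were higher and 1 lower in KO than in WT (median 0.78), against 14.5% and 11.1% of all genes. Abca1, which encodes a cholesterol exporter, held 208 and 165 CPM in WT and 439.6 and 568 CPM in KO at day 4 (1.43 ± 0.17, adjusted p = 0.00113). Mylip, which encodes a ubiquitin ligase and is known as an LXR target, held 10.4 and 10.3 CPM in WT and 26.9 and 30.3 CPM in KO (1.47 ± 0.14, adjusted p = 6.68e-04). Apoe, which encodes an apolipoprotein, fell in both genotypes (-7.38 in WT and -4.25 in KO) and was higher in KO at day 4 (3.83 ± 0.70, adjusted p = 0.006601, but 0.0528 and 0.0645 without WT day 4 replicate 1 or 2), and Soat1, which encodes a cholesterol esterifying enzyme, fell in both (-1.504 and -1.29) with no call between them. Of 8 macrophage markers, 6 were also higher in KO at day 4 by the same test, and 1, Lyz2, was lower (14.5% and 11.1% of all genes). Without Lyz2 the markers summed to 1657 and 2592 TPM in KO against 625 and 649 TPM in WT. The part of macrophage markers in the values of these efflux, storage and LXR genes was not tested.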

How the data were processed

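Values came from 12 RNA-seq libraries of the series' 37 samples, and the 12 ATAC-seq and 13 CUT&Tag samples were not analysed here. The deposited table of expected counts holds whole numbers per gene, and the deposited TPM table holds TPM as the authors computed it. Per the submitters' processing notes the tools, with no role stated, included RSEM 1.3.1, DESeq2, STAR 2.7.3a and Trim Galore 0.6.1, and both mm9 and mm10 are named. Which gene models were counted, and whether by strand, is not given in the sources used here.

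A single edgeR 4.0.16 model (R 4.3.3) took in all 12 libraries, with TMM scaling, filterByExpr (minimum count 10), 1 mean per group and robust quasi-likelihood F tests, adjusted by the Benjamini-Hochberg method over 12774 genes. Genes with an adjusted p under 0.05 count as called. Each SE was found by dividing the absolute log2 fold change by the root of its F statistic. The edgeR, DESeq2 and limma steps were run on simulated counts with changes placed in WT day 4 alone. Interaction tests, replicate blocks and fits with a library left out were not simulated. The rule for genes given library by library took every member called between genotypes or in an interaction, the 4 largest called changes of WT at days 2 and 4, and 5 pairs of paralogs. Acaca and Fasn, and the 5 promoters shown, were added after their values were seen. In each companion list the rule named at most 4 genes, those called in most comparisons, and the alternatives for them were added after seeing the data. The members and lists were chosen with earlier results of these data known. The 19 alternatives were DESeq2 size factors, no filter, the DESeq2 1.42.0 Wald test, limma 3.58.1 on log2(TPM + 1) and on log2(TPM + 0.1), the replicate number as a block, the same block with KO numbers crossed, and each library left out, where the lone library left in a group is assumed to have the spread of the rest. Protein sequences were not used here. Some genes named by the rule for companion lists are not reported here.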

Additional observations from a re-analysis of the deposited data

Results flagged for a closer look

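The KO effect changed between days, by the interaction test of edgeR, for 16 of the 33 genes from day 0 to day 4. Of all genes tested, 5.75% were called higher and 2.82% lower. In isoprenoid precursor genes the log2 values were -2.12 for Fdps, -1.92 for Idi1, -1.31 for Pmvk and -0.69 for Aacs. Among sterol genes they were -1.96 for Cyp51, -1.89 for Hsd17b7, -1.56 for Lss, -1.43 for Msmo1, -1.12 for Sc5d and -0.76 for Nsdhl. Among regulators and carriers they were -2.07 for Insig1, -1.18 for Srebf2, -1.11 for Srebf1, -1.07 for Stard4 and -0.92 for Insig2, and the value of Acly was -0.73. The adjusted p ran from 0.00376 for Insig1 to 0.0469 for Nsdhl. From day 2 to day 4 the values were -1.71 for Cyp51, -1.69 for Idi1, -1.65 for Insig1, -1.44 for Lss, -1.33 for Fdps, -1.25 for Msmo1 and -0.60 for Acly, with adjusted p from 0.0138 to 0.0486. For this step 2.09% of all genes tested were called higher and 1% lower. The 2 sets of interaction values share the day 4 libraries.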

How the results depend on the processing

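With 2 libraries a group, calls near the threshold moved with single libraries, and the signs of called genes held under every alternative except for Scap from day 0 to day 4 in KO, at 0.067 and 0.069 on the log2(TPM + 1) and log2(TPM + 0.1) scales in place of -0.38. DESeq2 size factors and no filter each gave 0 calls at day 2 between genotypes in place of 1, and no filter gave 1 at day 0 in place of 2. The DESeq2 test gave 3 at day 2, 1 for the interaction from day 0 to day 2 and 13 for that from day 2 to day 4. Limma on log2(TPM + 1) gave 0 calls between genotypes at days 0 and 2, 3 for WT and 4 for KO at day 2, 9 for the interaction from day 0 to day 4 and 2 for that from day 2 to day 4, and on log2(TPM + 0.1) the counts were 0, 0, 3, 3, 9 and 2. On that scale the median of all genes from day 0 to day 4 in WT was 0.15, against -0.04 by edgeR. With a library left out, counts ran from 0 to 8 for WT at day 2, 0 to 9 for KO at day 2, 5 to 15 for KO from day 2 to day 4, 0 to 2, 0 to 3 and 9 to 21 between genotypes at days 0, 2 and 4, and 3 to 21 and 0 to 14 for the interactions that end at day 4. The other causes of these shifts were not tested.

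The replicate numbers are not said to pair cultures. Differences between replicates correlated at 0.11 to 0.30 between WT days and 0.43 to 0.60 between KO days, and at -0.54 to -0.36 between WT day 0 and the KO days. The replicate block gave 2 calls at day 2 between genotypes in place of 1, and with KO numbers crossed, an alternative chosen after seeing the data, it also gave 2. It changed no other count by over 1.5 times.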
